A study of Mus musculus with 8 samples.

Results

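Neural miRNAs, those known for their roles in neurons, glia and neural progenitors, were examined in mouse sperm. They were taken from the count table by name, as every mature miRNA of the families miR-7a, miR-7b, miR-9, miR-124, miR-128, miR-132, miR-137, miR-138, miR-212, miR-218 and miR-219a, whichever arm of the hairpin it came from. The name refers to where these families are known to act, and not to cells found in the samples. The rule gave 12 of the 387 mature miRNAs listed, and 9 of the 12 passed the filter on low counts. Small RNA libraries were made from the sperm RNA of C57BL/6 mice 2 months old, 4 in the group Trained and 4 in the group Exposed, both marked F0 in the titles. The series concerns sperm RNA after treatments related to smell, and a heading of the deposited table writes the first group as AceTrained, which the labels do not expand. The labels give no further detail of either treatment, of how the sperm were isolated, or of whether each sample came from its own animal, so a p-value here weighs only sample-to-sample spread, part of which may be technical. No untreated group was analysed here.

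A miRNA guides the Argonaute protein to messenger RNAs that pair with its seed, the bases 2 to 8 from its 5′ end, and lowers their output. In the nervous system, miR-124 accumulates in neurons as they differentiate, miR-9 acts in neural progenitors, miR-128 is abundant in mature neurons, and miR-132 and miR-212 are transcribed in response to neuronal activity through CREB. miR-218 marks motor neurons, miR-219 promotes the maturation of oligodendrocytes, miR-137 and miR-138 act at dendrites and spines, and miR-7 is enriched in neuroendocrine cells and is bound by the circular RNA Cdr1as. Sperm carry miRNAs from the germ cells that formed them, and are thought to take up others during transit of the epididymis.

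The mature sequences of 10 of the 12 members were matched in the RefSeq set used here (GRCm38.p6), which had no entry for miR-124-3p or miR-219a-2-3p. Of the matched sequences, 6 are shown here so that their seeds, in capitals, can be compared. They are the 3 abundant members, the near twin miR-7b-5p, the other arm miR-9-3p, and miR-212-5p, which shares its transcript with miR-132. The arms of miR-9 and of miR-132 differ in seed and so address different targets.
miR-128-3p: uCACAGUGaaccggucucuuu
miR-7a-5p: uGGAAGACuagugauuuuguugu
miR-7b-5p: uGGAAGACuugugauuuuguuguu
miR-9-5p: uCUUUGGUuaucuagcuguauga
miR-9-3p: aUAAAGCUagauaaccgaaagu
miR-212-5p: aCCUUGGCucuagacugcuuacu
miR-7a-5p and miR-7b-5p share their seed and differ by A10U, counted from the 5′ end of miR-7a-5p, and miR-7b-5p has 1 base more at its 3′ end. The division of reads between these near-identical sequences is therefore uncertain. No other listed miRNA with a RefSeq sequence shared a seed with a member. The 6 letters CACAGU at bases 2 to 7 of miR-128-3p also stood at bases 3 to 8 of miR-27a-3p and miR-27b-3p, which were named after the sequences were compared.

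Several of the mature forms come from more than 1 hairpin, and reads of the mature form do not say which hairpin was transcribed. In RefSeq, miR-128-3p is encoded by Mir128-1, at chr1:128202361-128202430 in an intron of R3hdm1, and by Mir128-2, at chr9:112118636-112118711 in an intron of Arpp21. miR-9-5p and miR-9-3p come from Mir9-1 at chr3:88215598-88215686, Mir9-2 at chr13:83738814-83738885 and Mir9-3 at chr7:79505264-79505353, all inside long non-coding RNA genes. miR-7a-5p comes from Mir7-1, at chr13:58392779-58392886 in an intron of Hnrnpk, and from Mir7-2, at chr7:78888277-78888373 with no overlapping gene. Mir212 at chr11:75173388-75173478 and Mir132 at chr11:75173682-75173747 lie in an intron of the same non-coding transcript, 1700016P03Rik. Mir218-1 and Mir218-2 lie in introns of Slit2 and Slit3. Overlapping genes are those of GENCODE M21 on GRCm38, and the deposited table names no build.

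The library totals, which are reads assigned to listed miRNAs, lay between 239664 and 261903 counts in Trained and between 193013 and 254944 counts in Exposed, so that 1 count was worth 3.82 to 5.18 CPM (counts per 1000000 counts of the library). The germ cell miRNAs, from the X-linked testis cluster and the families of miR-34 and miR-449, had 18 of 19 names listed and held 33.7% to 40.9% of counts. Libraries differed in markers of other cells. Red blood cell miRNAs reached 11600 CPM in Trained 3, against 242 to 3075 CPM in the other Trained libraries and 230 to 4134 CPM in Exposed. Leukocyte miRNAs reached 5139 CPM in the same library, against 1013 to 2299 CPM in the other Trained libraries and 938 to 1517 CPM in Exposed. Of 5 miRNAs taken as a list for neural tissue, 4 were listed (miR-9-5p, miR-9-3p, miR-124-3p and miR-218-5p). Their sum was 2547 to 3249 CPM in Trained and 2805 to 2901 CPM in Exposed, most of it miR-9-5p. All 4 are members of the part described here, so this sum is no separate measure of neural cells. Smooth muscle and stroma miRNAs reached 15390 CPM in Exposed 2, against 7994 to 10253 CPM in the other Exposed libraries and 7281 to 8520 CPM in Trained.

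Sperm carried 3 neural miRNAs at high level. Together the 12 members held 4.03% ± 0.399 of counts in Trained and 3.97% ± 0.638 in Exposed (SD, n = 4 each). Within that sum, miR-128-3p took 67.3% ± 1.002 in Trained and 67.7% ± 1.90 in Exposed, miR-7a-5p took 24.7% ± 1.69 and 24.3% ± 1.06, and miR-9-5p took 6.63% ± 0.927 and 6.64% ± 1.10. The other 9 members shared 1.39% ± 0.0994 of the sum (SD, n = 8), which is 94 to 161 counts in a library.

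miR-128-3p (mmu-miR-128-3p in the table), the neuronal miRNA, ranked 9th of 387 by mean level. It stood at 25873, 30378, 28026 and 24171 CPM in Trained 1 to 4, against 32883, 21642, 29242 and 24231 CPM in Exposed 1 to 4. The highest and the lowest library were both Exposed, and the Trained values lay between them. Its neighbours in the ranking were miR-184-3p above it, at 28054 ± 2230 CPM (SD, n = 8), and miR-148a-3p below it, at 23753 ± 2953 CPM. These ranges overlapped with that of miR-128-3p. Its counts ran from 4521 to 7954 per library, and its coefficient of variation over the 8 libraries was 13.8%, where counting error alone gives 1.25%. The median over the 83 tested miRNAs above 1000 CPM was 12.1%.

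miR-7a-5p, the neuroendocrine miRNA, ranked 27th. It stood at 8568, 10979, 11325 and 8946 CPM in Trained 1 to 4, against 10621, 8009, 10932 and 8906 CPM in Exposed 1 to 4. Each group held a high pair and a low pair of libraries, and the groups overlapped. Its near twin miR-7b-5p had only 13 to 29 counts per library, and the ratio of miR-7a-5p to miR-7b-5p was at least 98.8 in every library.

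miR-9-5p (mmu-miR-9-5p in the table), the neural progenitor miRNA, ranked 58th and had the lowest coefficient of variation of the abundant members over all libraries. It stood at 2747, 2950, 2253 and 2654 CPM in Trained 1 to 4, against 2580, 2571, 2565 and 2637 CPM in Exposed 1 to 4. The 4 Exposed libraries lay close together, and the Trained libraries lay on both sides of them. The SD of the Exposed libraries, 33.2 CPM around a mean of 2588 CPM, was smaller than counting error alone gives. Their closeness is therefore not read as steadiness in Exposed, nor the wider Trained range as a spread with training. Its coefficient of variation was 7.47%, with 4.02% from counting error, and 13 of the 83 tested miRNAs above 1000 CPM varied less. The close Exposed values enter this figure, and in Trained alone the SD was 293 CPM around a mean of 2651 CPM.

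The next member was more than an order of magnitude lower. miR-218-5p, the motor neuron miRNA, had a mean of 159 ± 30.7 CPM over the Trained libraries and 157 ± 21.4 CPM over the Exposed ones (SD, n = 4 each), and the ratio of mean levels of miR-9-5p to miR-218-5p was 16.6. In the order of mean level it was followed by miR-212-5p, miR-7b-5p, miR-132-5p, miR-9-3p, miR-124-3p, miR-132-3p, miR-219a-1-3p and miR-219a-2-3p. The ranges over 8 libraries did not overlap between neighbours from miR-128-3p down to miR-212-5p, from miR-9-3p to miR-124-3p, or from miR-124-3p to miR-132-3p. They did overlap among miR-212-5p, miR-7b-5p, miR-132-5p and miR-9-3p, and among the last 3. Capture in small RNA libraries differs between sequences, so the order is one of reads.

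**Figure D1:**
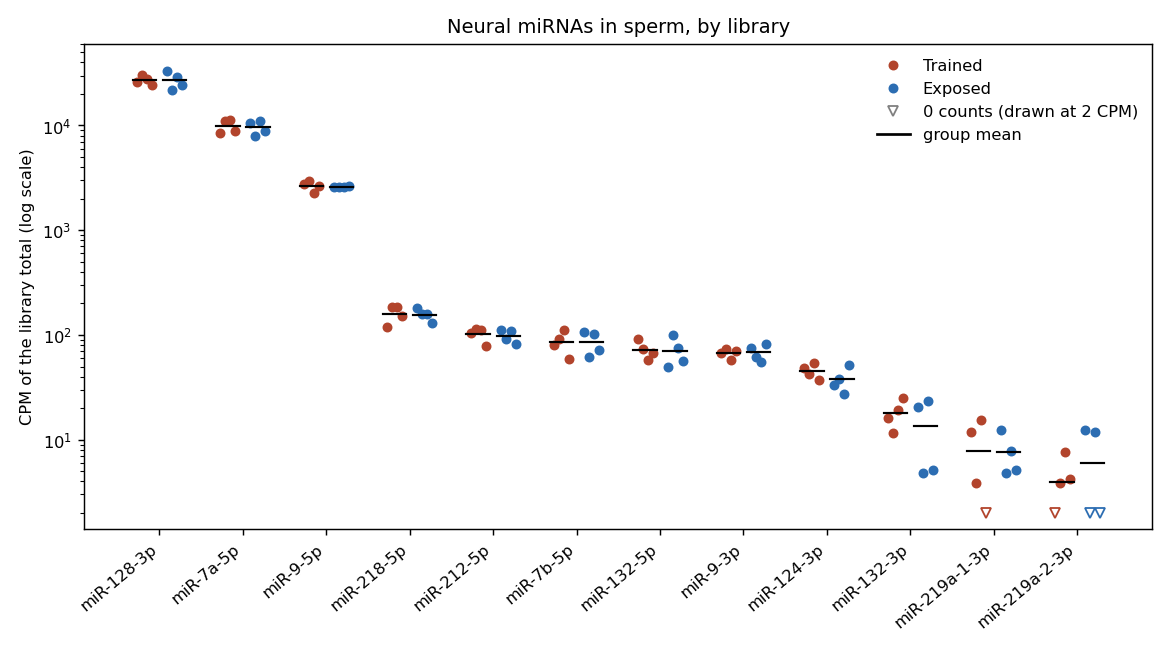
Level of each of the 12 neural miRNAs in each library, in CPM of the library total on a log scale, with Trained in red and Exposed in blue, a black bar at the group mean, and open triangles for libraries with 0 counts. miR-128-3p, miR-7a-5p and miR-9-5p stand at 2253 CPM or more in all 8 libraries, and the other 9 at 184 CPM or less.

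miR-124-3p, the most neuron-specific of the families searched, was in the lower part of the table. It had 12, 11, 14 and 9 counts in Trained 1 to 4, against 8, 8, 7 and 10 counts in Exposed 1 to 4, and ranked 225th of 387. In CPM this was 37.6 to 53.5 in Trained and 27.5 to 51.8 in Exposed, so the groups overlapped. Its coefficient of variation of 22.0% was under the 32.0% that counting error gives at this depth. miR-219a was listed only by its 3p arms. miR-219a-1-3p had 0 to 4 counts in a library, and Trained 4 had 0 of 239664 counts, which allows up to 12.5 CPM. miR-219a-2-3p had 0 to 3 counts, with 0 counts in Trained 1, Exposed 2 and Exposed 4, which allows up to 12.0, 14.4 and 15.5 CPM. These floors take 3 counts per library and cover counting error only. Of the 24 mature names under the same rule in the RefSeq set used here, 14 were not among the 387 listed. These include both arms of miR-137, miR-138-5p, miR-212-3p and miR-219a-5p. That set held no miR-124 name and no miR-219a-2-3p, so the 24 are not complete for the rule. The smallest summed count of a listed miRNA was 7 over the 8 libraries.

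The balance of arms differed between families. For miR-9 the 5p arm gave 97.5% ± 0.0906 of the reads of both arms in Trained and 97.4% ± 0.428 in Exposed (SD, n = 4 each), with 13 to 19 counts of miR-9-3p in a library. For miR-132, the arm best known in neurons is the 3p arm. In sperm, miR-132-5p had 23, 19, 15 and 16 counts in Trained 1 to 4, beside 4, 3, 5 and 6 counts of miR-132-3p in the same libraries. In Exposed 1 to 4 there were 12, 21, 19 and 11 counts of miR-132-5p, beside 5, 1, 6 and 1 counts of miR-132-3p. The 5p arm had more reads in 8 of 8 libraries, at 79.8% ± 6.96 of both arms in Trained and 83.4% ± 12.0 in Exposed, and the CPM ranges of the arms did not overlap (49.6 to 100.5 for miR-132-5p, 4.79 to 25.04 for miR-132-3p). Within single libraries the exact 95% binomial interval of the share reached below 50% in Exposed 1 (44.0% to 89.7%) and Trained 4 (49.8% to 89.3%). miR-212, from the same non-coding transcript, was listed by its 5p arm only, at 19 to 30 counts in Trained and 16 to 28 counts in Exposed. The Mir132 hairpin is shown with both arms in capitals, 5p first, from RefSeq (GRCm38.p6, plus strand).
Mir132: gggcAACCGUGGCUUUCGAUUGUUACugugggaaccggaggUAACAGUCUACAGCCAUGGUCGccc

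**Figure D2:**
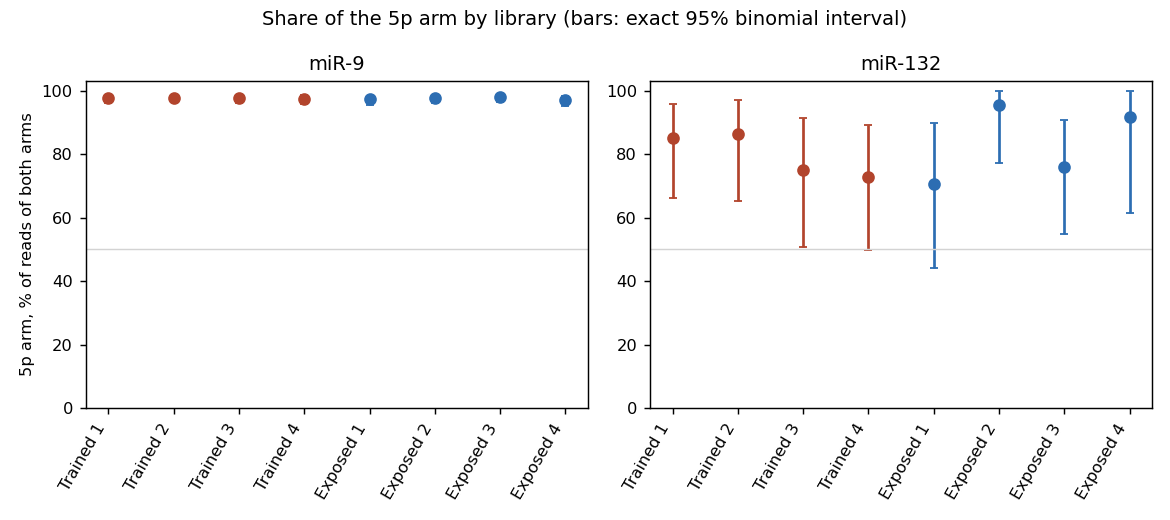
Share of the 5p arm among reads of both arms of miR-9 (left) and miR-132 (right) in each library, in percent, with exact 95% binomial intervals, Trained in red and Exposed in blue. The 5p arm holds more than 50% in all 8 libraries for both families, with 97.0% to 97.9% for miR-9 and 70.6% to 95.5% for miR-132.

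The comparison of Trained with Exposed asks whether sperm of the groups differ in these miRNAs, and it used edgeR's quasi-likelihood test fitted on all 226 miRNAs that passed the filter. Of the 9 neural miRNAs tested, 0 passed an FDR of 0.05, against 0% of all 226. At an unadjusted p under 0.05 there were 0 of the 9, against 4.42% of all tested, and DESeq2 and limma-voom also called 0 of the 9 at FDR 0.05. Groups that did not overlap in CPM were found for 0 of the 9, against 2.21% of all tested. Fitted values were higher in Trained for 5 of the 9, with a median log2 fold change of 0.00, and for 117 of all 226, with a median of 0.00. With library totals in place of TMM factors they were higher for 7 of the 9 and for 143 of all 226.

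The abundant members gave the narrowest intervals. miR-9-5p averaged 2651 ± 293 CPM over the Trained libraries and 2588 ± 33.2 CPM over the Exposed ones (SD, n = 4 each), a log2 fold change of 0.00 with a 95% interval of -0.23 to 0.23 (FDR = 0.998 by edgeR). miR-128-3p averaged 27112 ± 2688 CPM over Trained and 27000 ± 5034 CPM over Exposed libraries, a log2 fold change of -0.03 with an interval of -0.35 to 0.30. miR-7a-5p averaged 9954 ± 1398 CPM over Trained and 9617 ± 1394 CPM over Exposed libraries, a log2 fold change of 0.02 with an interval of -0.32 to 0.35. For these 3 miRNAs a 2-fold difference in either direction lies outside the interval. The signs of such small values carry no information. That of miR-128-3p turns with library totals in place of TMM factors (0.0059) and without Trained 1, Trained 4, Exposed 1 or Exposed 3. That of miR-7a-5p turns without Trained 2, Trained 3, Exposed 2 or Exposed 4, and that of miR-9-5p without Trained 1 or Trained 2.

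The low members were measured less sharply. miR-218-5p, miR-212-5p, miR-7b-5p, miR-132-5p and miR-9-3p had log2 fold changes between -0.06 and 0.01, with standard errors from 0.19 to 0.25. Their 95% intervals reached at most down to -0.62 (miR-9-3p) and up to 0.56 (miR-132-5p). A 2-fold difference in either direction lies outside these intervals too. miR-124-3p had the value farthest from 0, with a mean of 45.3 ± 6.90 CPM over Trained and 37.7 ± 10.4 CPM over Exposed libraries (SD, n = 4 each). Its log2 fold change was 0.26, with a 95% interval of -0.48 to 0.9995 and a standard error of 0.33 (edgeR FDR = 0.998). It was 0.45 without Exposed 4 and 0.14 without Exposed 3. miR-132-3p, miR-219a-1-3p and miR-219a-2-3p had too few counts for the filter. The authors' deposited table lists all 12 and gives an FDR of 1 to each of them, with log2 fold changes from -0.33 for miR-219a-2-3p to 0.41 for miR-132-3p and a smallest unadjusted p-value of 0.393.

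**Figure D3:**
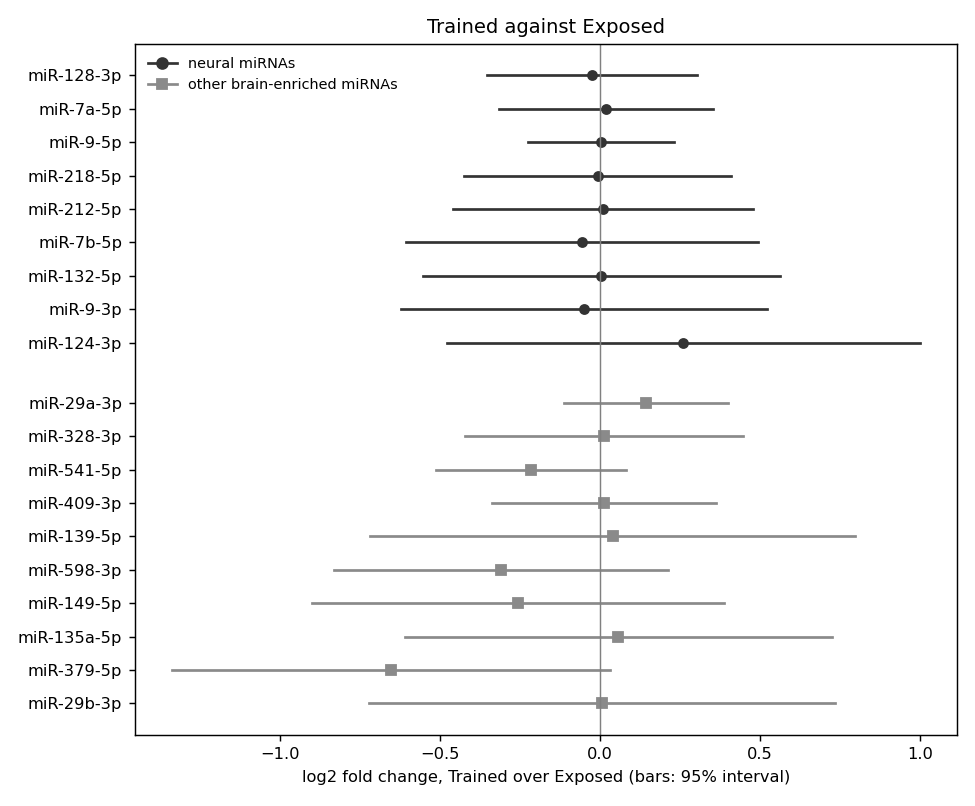
Log2 fold change of Trained over Exposed with its 95% interval for the 9 tested neural miRNAs (circles) and the 10 tested members of a list of other brain-enriched miRNAs (squares), from the edgeR fit. All 19 intervals include 0, and those of miR-9-5p, miR-128-3p and miR-7a-5p are among the narrowest.

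The summed level of the 12 members was 37727, 44905, 42218 and 36263 CPM in Trained 1 to 4, against 46687, 32743, 43307 and 36262 CPM in Exposed 1 to 4. The groups overlapped, with the highest and the lowest sum both in Exposed. The log2 ratio of the group means was 0.02 (two-sided exact permutation p = 0.857 over 70 assignments, where the smallest possible is 0.0286). Its sign turned with TMM factors (-0.013).

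For each of the 9 tested members the range within either group was wider than the difference of the group means, and libraries did not rank alike for all members. miR-128-3p, miR-7a-5p, miR-7b-5p and miR-212-5p were each above their own median in Trained 2, Trained 3, Exposed 1 and Exposed 3 and below it in Trained 1, Trained 4, Exposed 2 and Exposed 4. miR-7b-5p, for example, stood at 79.9, 92.1, 111 and 58.4 CPM in Trained 1 to 4, against 107, 62.2, 102 and 72.5 CPM in Exposed 1 to 4. For miR-218-5p Exposed 2 took the place of Exposed 3, and miR-9-5p, miR-9-3p, miR-132-5p and miR-124-3p did not follow this order. The tested members below miR-9-5p in level had only 7 to 48 counts per library. Their coefficients of variation were under counting error for miR-212-5p, miR-218-5p, miR-9-3p and miR-124-3p. They were little above it for miR-7b-5p (23.8% against 22.1%) and miR-132-5p (24.8% against 24.4%). Whether each of these low members follows the order therefore cannot be told from counting error. In Trained 2 all 9 tested members lay above their medians, and in Trained 4 and Exposed 2 only 2 of the 9 did. The summed level of the germ cell miRNAs was 409242, 401891, 337316 and 402601 CPM in Trained 1 to 4, against 379362, 403021, 382406 and 386813 CPM in Exposed 1 to 4. Trained 3, the highest for miR-7a-5p and the lowest for miR-9-5p, had the lowest of these sums and the highest red blood cell and leukocyte sums. Exposed 2, the lowest for miR-128-3p and miR-7a-5p, had the highest sums of smooth muscle, striated muscle (3078 CPM) and epithelial miRNAs (27114 CPM). The part of cell content in these differences was not tested.

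**Figure D4:**
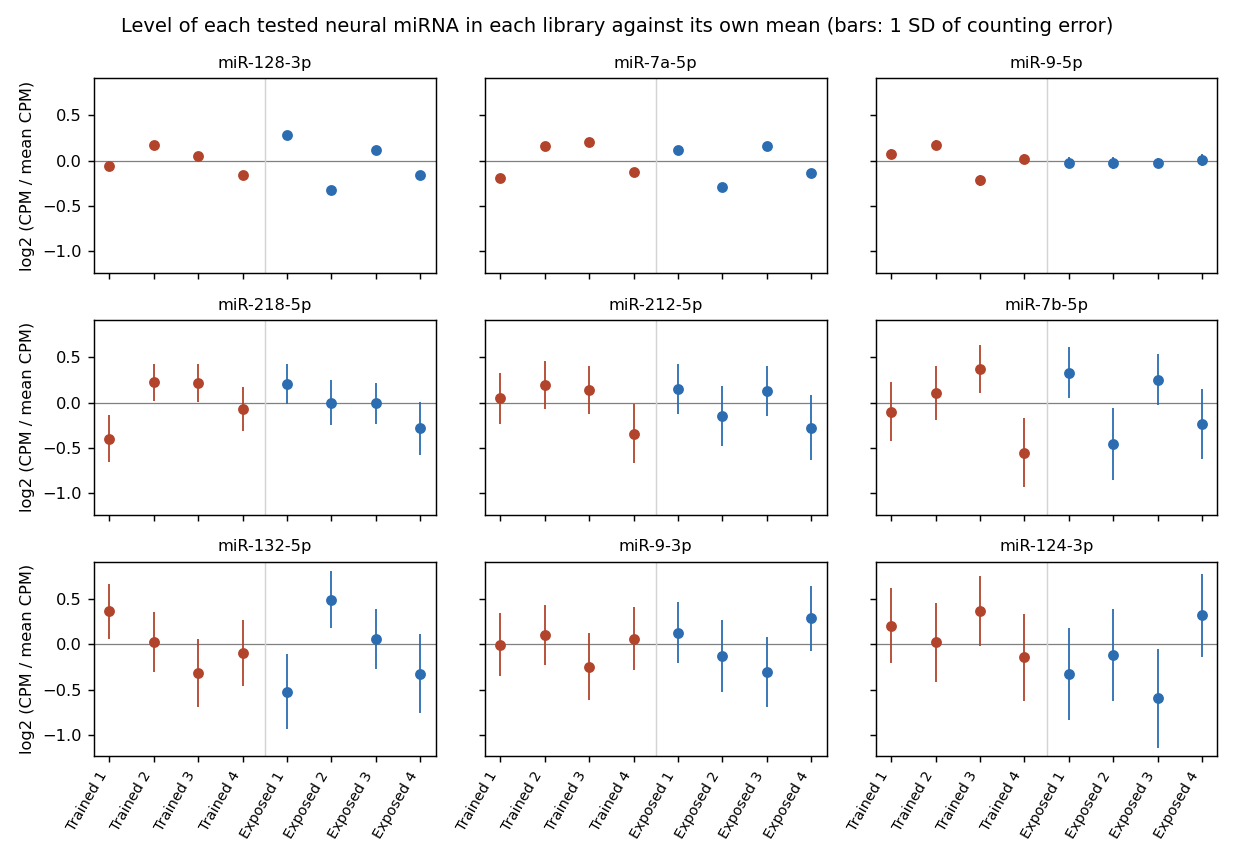
Level of each of the 9 tested neural miRNAs in each library, as log2 of CPM over the miRNA's own mean CPM, with bars for 1 SD of counting error, Trained in red and Exposed in blue. miR-128-3p, miR-7a-5p, miR-7b-5p and miR-212-5p are high in Trained 2, Trained 3, Exposed 1 and Exposed 3. The spread of miR-7b-5p is close to counting error, and that of miR-212-5p is under it. miR-9-5p runs from 2253 to 2950 CPM in Trained, and its Exposed values lie closer together than counting error alone gives.

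The miRNAs whose pattern over the 8 libraries was most like that of miR-128-3p were not neural ones. By Pearson's r of log2(CPM + 1) among the 225 other tested miRNAs, given as a description over 8 libraries, in which each miRNA is read against the same library totals and the same mix of cells, they were miR-340-5p (r = 0.97), the X-linked testis miRNA miR-743b-5p (0.97) and let-7a-1-3p (0.95). miR-7b-5p and miR-7a-5p came 17th and 19th in likeness to miR-128-3p (r = 0.87 each), and miR-9-5p came 108th (0.05). For miR-9-5p the most alike were germ cell miRNAs, with miR-34c-5p first (0.93), then miR-880-3p (0.82) and miR-470-5p (0.78), and its own other arm miR-9-3p came 22nd (0.55). miR-423-5p above miR-9-5p and miR-3107-5p below it in the ranking by level averaged 2742 ± 281 CPM and 2461 ± 2541 CPM over the 8 libraries (SD).

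A list of other brain-enriched miRNAs, recalled as background and not a complete survey, had 28 members in the table, 10 of which passed the filter. Of these 10, 0 passed FDR 0.05 by edgeR, against 0% of all 226 tested, and 0 had an unadjusted p under 0.05, against 4.42% of all tested. Fitted values were higher in Trained for 6 of 10, against 117 of all 226, with a median log2 fold change of 0.01, beside 0.00 over all tested. With RLE factors they were higher for 5 of 10, against 111 of all 226. The most abundant was miR-29a-3p, which is high in mature neurons and many adult tissues, with a mean of 2205 ± 292 CPM over Trained and 1954 ± 122 CPM over Exposed libraries (SD, n = 4 each; log2 fold change 0.14, SE 0.11). The values of miR-29a-3p ran from 1932 to 2612 CPM in Trained and from 1781 to 2063 CPM in Exposed, so they overlapped. The highest was in Trained 3. miR-379-5p, the first miRNA of a large imprinted cluster active in brain, had the smallest p of the list, with 39.9, 46.0, 26.7 and 41.7 CPM in Trained 1 to 4, against 41.3, 95.7, 43.1 and 62.2 CPM in Exposed 1 to 4. These groups overlapped, and the value rested on 7 to 20 counts per library (log2 fold change -0.65 with a standard error of 0.30, edgeR FDR = 0.998). The other 8 tested were miR-328-3p, miR-541-5p, miR-409-3p, miR-139-5p, miR-598-3p, miR-149-5p, miR-135a-5p and miR-29b-3p, with log2 fold changes from -0.31 to 0.06. The 18 that failed the filter had at most 11 counts in any library.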

How the data were processed

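Sperm RNA was prepared with the Qiagen miRNeasy kit and read as 50 nt single-end reads on a NextSeq500, per the labels' protocols. The deposited table gives counts, in whole reads, of each mature miRNA in 8 samples, the authors' group means of those counts (a score here, with no error), and the authors' log2 fold changes and average log2 CPM with p-values and FDR. The submitters' processing notes name edgeR without a version. How reads were trimmed and aligned, to which miRNA reference and build, is not given in the sources used here.

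Groups and replicate numbers come from the sample titles. Levels are counts divided by the library total. Tests were run in R 4.3.3 with edgeR 4.0.16, using TMM factors, the default filter by group (226 of 387 kept), robust quasi-likelihood F tests and Benjamini-Hochberg adjustment over all 226. Standard errors come from the fit's weights and moderated dispersion and are never under the counting error. The test was checked on 10 simulated data sets in which 40 miRNAs were changed by 2-fold or more. Smaller changes were not simulated. Libraries of a group differed by more than sampling of reads allows (chi-square over degrees of freedom 3.87 or more), so they are not repeat reads of the same library. All 8 were used as samples, though this spread cannot tell whether each came from its own animal. Permutation tests used scipy 1.17.1. Alternatives were RLE factors, library totals, no filter, 10 CPM in 4 libraries, DESeq2 1.42.0, limma-voom (limma 3.58.1), the replicate number as a block, and leaving out each library. Leaving out Exposed 2 with Trained 3 was chosen after seeing the data.

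The members, lists and tests were chosen with earlier results of these data known. All 12 members are named. Other miRNAs are named where they share a member's seed, are among the 3 most alike in pattern or next in rank to miR-128-3p or miR-9-5p, or are tested members of the brain-enriched list.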

Additional observations from a re-analysis of the deposited data

How the results depend on the processing

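No setting called a neural miRNA or any of the tested miRNAs at FDR 0.05, over 16 settings besides the one reported. The smallest unadjusted p of the 9 tested neural miRNAs over these settings was 0.201. With all libraries in and the default filter, 8 to 14 of the 226 tested miRNAs had an unadjusted p under 0.05, among them 12 by DESeq2 and 8 by limma-voom. With no filter there were 18 of all 387 listed, and with the 10 CPM filter 14 of another set of miRNAs. Scaling by library totals gave higher values in Trained to 143 of 226, against 117 with TMM factors, and moved the median of all miRNAs by 0.03 (log2).

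The signs of values near 0 turned. With library totals the log2 fold change was 0.0059 for miR-128-3p and 0.023 for miR-218-5p, which was 0.011 with no filter and 0.0041 with the 10 CPM filter. For miR-9-5p it was -0.0046 by limma-voom. Without Exposed 2 and Trained 3 it was -0.074 for miR-7a-5p, -0.018 for miR-212-5p, 0.036 for miR-9-3p and -0.087 for the summed level. The summed level was -0.016 with RLE factors and -0.013 with TMM factors, and it kept its sign without miR-128-3p. With 1 library left out the values ran from 0.14 to 0.45 for miR-124-3p, -0.11 to 0.082 for miR-128-3p, -0.14 to 0.21 for miR-132-5p, -0.043 to 0.11 for miR-212-5p, -0.070 to 0.12 for miR-218-5p, -0.057 to 0.10 for miR-7a-5p, -0.18 to 0.084 for miR-7b-5p, -0.14 to 0.061 for miR-9-3p, -0.025 to 0.10 for miR-9-5p and -0.063 to 0.11 for the summed level. The cause was not tested.

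Libraries with the same replicate number deviated together in 3 of 4 pairs (correlations from -0.40 to 0.69), and 5 of 8 libraries correlated best with their own number. The titles give the number without saying whether it pairs samples, and the main fit did not use it. A batch shared by number was not tested. With the replicate number as a block 0 miRNAs were called and miR-9-5p was at -0.0043, and the sum, tested on paired differences, allowed no p under 0.125. Depth limits the low members. At 7 to 14 counts per library, the interval of miR-124-3p spans a fold change of nearly 1 log2 unit upward.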
